A study of Mus musculus with 11 samples.

Results

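The genes described here make, regulate and move cholesterol and fatty acids. They are 36 genes, chosen by name for these roles and matched from symbol to Ensembl identifier through GENCODE M21, out of 52550 genes in the count table. All 36 were found in the table, and all 36 had enough reads to be analysed in every library, the lowest count being 286. They fall into 5 roles: the mevalonate arm with 7 genes, the steps from squalene to sterol with 11, the control of SREBP with 5, fatty acid synthesis with 5, and transport, storage and clearance of cholesterol with 8.

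RNA came from the nucleus accumbens shell, a ventral region of the striatum, of mice aged 8 weeks on a mixed background of CBA, C57BL6J and 129svEmx. The series addressed how reduced signalling through Rarb, a receptor for retinoic acid, alters transcription together with R6/1, a transgene carrying a fragment of human huntingtin with an expanded repeat. Each of the 11 libraries carries an animal code (m44 to m115) and no genotype in the labels, so the libraries were left without groups. R6/1 carriers, mice with altered Rarb and their controls therefore cannot be told apart here, and no treatment is named.

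Circulating cholesterol hardly enters the brain, which builds its own from acetyl-CoA. The mevalonate arm makes isoprenoid units, farnesyl diphosphate is joined to squalene, and squalene is cyclised and trimmed to sterols. SREBP transcription factors leave the endoplasmic reticulum with the escort protein Scap when sterol is scarce and are held back by Insig proteins when it is plentiful. Astrocytes supply much of the lipid that neurons use, on Apoe particles loaded by Abca1 and Abcg1, oligodendrocytes make large amounts for myelin, and neurons clear cholesterol by hydroxylation with Cyp46a1.

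Promoters are shown for Hmgcs1 and for 3 genes that rose with it, to set their letters side by side. These 3 passed in edgeR's quasi-likelihood test with a length measure of each library, defined below, as a second covariate. Without that covariate 0 of the 35 other genes passed in that test. Each promoter is the stretch of 180 bases just before the start of the gene in RefSeq (GRCm38.p6), written 5′ to 3′ in the direction of transcription. By the gene positions of GENCODE M21, the Msmo1 stretch lies inside the gene, and those of Idi1 and Insig1 lie partly inside. Capitals mark the CCAAT box (CCAAT, or ATTGG on the other strand), to which the factor NF-Y binds, the E-box CACGTG, and 1 match to the sterol element TCACNCCAC. The stretches lie at chr13:119690171-119690350 on the plus strand for Hmgcs1, chr13:8885426-8885605 on the plus strand for Idi1, chr5:28071232-28071411 on the plus strand for Insig1 and chr8:64733579-64733758 on the minus strand for Msmo1.
Hmgcs1: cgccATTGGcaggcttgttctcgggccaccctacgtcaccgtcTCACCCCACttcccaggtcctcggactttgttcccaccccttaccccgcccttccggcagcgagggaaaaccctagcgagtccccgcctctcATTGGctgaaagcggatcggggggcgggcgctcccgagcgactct
Idi1: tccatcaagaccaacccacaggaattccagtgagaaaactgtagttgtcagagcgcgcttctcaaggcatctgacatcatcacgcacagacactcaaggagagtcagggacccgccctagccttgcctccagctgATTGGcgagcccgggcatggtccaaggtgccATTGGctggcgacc
Insig1: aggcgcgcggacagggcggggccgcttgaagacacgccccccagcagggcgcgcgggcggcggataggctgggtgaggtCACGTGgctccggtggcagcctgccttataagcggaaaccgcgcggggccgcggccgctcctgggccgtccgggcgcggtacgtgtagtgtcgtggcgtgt
Msmo1: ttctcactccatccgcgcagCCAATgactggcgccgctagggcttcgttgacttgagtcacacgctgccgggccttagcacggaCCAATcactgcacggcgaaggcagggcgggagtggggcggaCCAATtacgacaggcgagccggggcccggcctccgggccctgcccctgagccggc

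Of the 36 genes, 28 had a RefSeq promoter, in 38 windows of 300 bases. Each motif was searched on both strands. CCAAT was found in 24 of the 38 windows, against 37.4% of all 32851 RefSeq windows of that length. GGGCGG, the GC box bound by Sp factors, was found in 28 of 38 against 35.7%, and CACGTG in 7 of 38 against 7.15%. The sterol element TCACNCCAC matched in 1 window, that of Hmgcs1, against 1.24% of all windows. Exact direct repeats of AGGTCA with a gap of 4 bases, of the kind read by liver X receptors, or of 5 bases, of the kind read by retinoic acid receptors, matched in 0 of 38 windows, against 0.0152% and 0.00913% of all. These counts describe the letters in the windows and are neither binding sites nor causes.

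Libraries held 24840981 (m61) to 48825783 (m49) counts, so that 3 counts corresponded to 0.0619 to 0.133 CPM. Marker lists of projection neurons (11 genes), myelin (12), astrocytes (10) and microglia (10) were present in full, with no marker at 0 in every library. Their summed levels ranged from 2965 to 6901 CPM for projection neurons, 2072 to 5173 for myelin, 1943 to 3176 for astrocytes and 365 to 614 for microglia, and markers of cortical glutamatergic neurons (6 genes) ran from 810 to 2402 CPM. Neuroblast markers (9 genes) ran from 137 CPM in m57 to 489 in m47. In such bulk tissue fewer cells of a type and less RNA per cell cannot be told apart. A length measure was taken per library as how far, in log2 units, the longest 10% of genes stood above the shortest 10%, each gene set against its own median. It ran from -0.64 in m61 through -0.07 (the median library) to 0.43 in m57. The library m61 had the lowest depth, the lowest length measure and the highest microglial score.

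Levels were compared between genes as CPM per kilobase of exon. Exon length here is that of all annotated exons of a gene, merged over its transcripts. It can exceed the length of the RNA present, which lowers the value of such a gene in this order. Apoe, the lipid carrier secreted by astrocytes, stood highest with a median of 692, followed by the desaturase Scd2 with 224 and the neuronal cholesterol hydroxylase Cyp46a1 with 66.9. Hmgcs1, which makes HMG-CoA at the head of the mevalonate arm, followed at 48.8, Acly, which releases cytosolic acetyl-CoA from citrate, at 32.5, Pmvk at 26.7 and Scd1 at 26.2. The lowest were the lanosterol synthase Lss at 3.4, the cholesterol esterifying enzyme Soat1 at 2.99 and the exporter Abca1 at 2.68. In this order, 32 of 35 neighbouring genes overlapped in their ranges over the 11 libraries. Ranges did not overlap between Apoe and Scd2, Scd2 and Cyp46a1, or Ebp and Npc1, and Hmgcs1 stood above Acly in 11 of 11 libraries although their ranges overlapped.

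**Figure D1:**
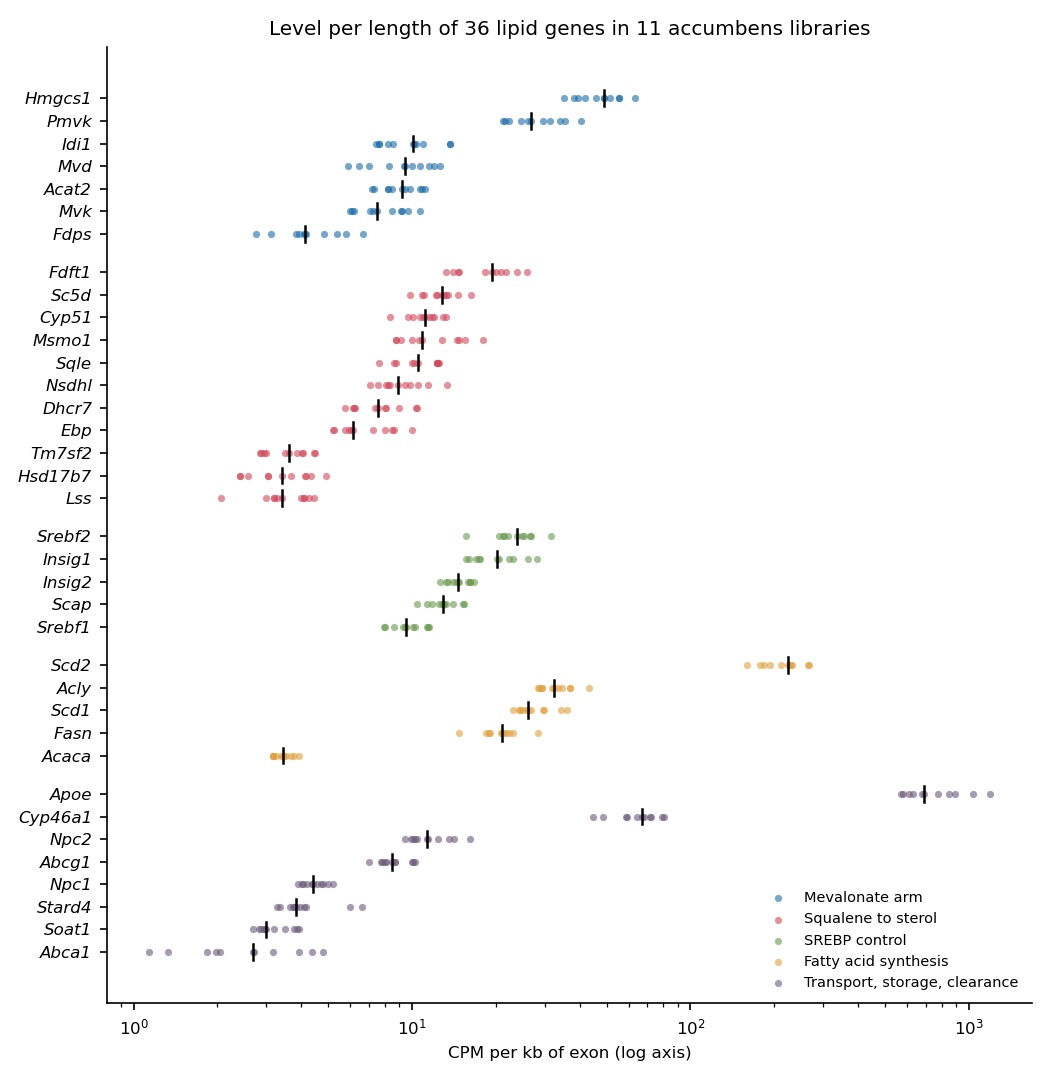
Level per exon length (CPM per kilobase, log axis) of each of the 36 genes, 1 point per library and a vertical bar at the median, grouped by role. Apoe and Scd2 stand apart at the top of the scale (medians 692 and 224), and the points of Abca1 are the most spread out.

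The mevalonate arm was led by Hmgcs1, at chromosome 13, 119690379 to 119708260 (GRCm38, plus strand). It was at 162 CPM in m74, 175 in m49, 181 in m101, 193 in m115, 210.0 in m83, 224 in m44, 225 in m47, 236 in m73, 254 in both m61 and m57, and 291 in m89. Idi1, the isomerase that interconverts the isoprenoid units, was at 26.0 in m74, 26.7 in m49 and m115, 28.7 in m101, 30.1 in m47, 35.4 in m57, 35.6 in m83, 36.4 in m44, 38.4 in m73, 47.8 in m61 and 47.9 in m89. In both genes m74, m49, m101 and m115 held the lowest levels and m89 the highest. Fdps, which builds farnesyl diphosphate, varied most within the arm: it was at 11.6 in m115, 13.1 in m47, 16.1 in m57, 16.5 in m73, 17.2 in m89, 17.4 in m49, 17.5 in m101, 20.3 in m44, 22.6 in m83, 24.5 in m74 and 28.1 in m61. Acat2, a thiolase that joins acetyl-CoA units, varied least and lay between 18.2 in m101, a median of 23.4 and 28.2 in m83. Of the 3 libraries highest for Fdps (m61, m83, m74), m61 was also high for Hmgcs1 and m74 was its lowest. The kinases Mvk (16.0 to 28.6 CPM) and Pmvk (36.3 to 69.5) and the decarboxylase Mvd (10.9 to 23.4) complete the arm. Exon sequence shared in stretches of 50 bases with other genes makes Acat2 (39.1%, with Acat3), Fdps (26.2%) and Idi1 (17.7%) uncertain, since reads could be split or lost among the copies.

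Among the genes from squalene to sterol, the squalene synthase Fdft1 was the most abundant. It was at 56.0 CPM in m115, 59.6 in m73, 61.7 in m47, 62.2 in m101, 77.1 in m74, 81.7 in m57, 84.4 in m49, 88.1 in m44, 91.8 in m89, 100.4 in m83 and 109.5 in m61. Msmo1, a methylsterol monooxygenase, takes part in removing methyl groups from lanosterol derivatives. Its level was 53.7 in m74, 54.0 in m115, 56.3 in m101, 61.4 in m47, 65.0 in m73 and 66.7 in m49. It reached 78.9 in m57, 88.9 in m83, 90.3 in m44, 94.9 in m89 and 111 in m61. Msmo1 had the largest spread of the group. Cyp51, the demethylase of lanosterol, had the smallest and lay between 36.8 in m101, 49.04 at the median and 58.7 in m61. Lss, which closes the ring system, was lowest in m61, where Fdft1 and Msmo1 were highest: it was at 22.2 CPM there, then 32.3 in m83, with a median of 36.7 and a maximum of 48.0 in m47. The remaining members were the epoxidase Sqle (42.2 to 69.5 CPM), the sterol reductase Tm7sf2 (12.6 to 19.7), Nsdhl (20.2 to 38.2) and Hsd17b7 (12.3 to 24.97), which act with Msmo1, the isomerase Ebp (12.1 to 23.0), the desaturase Sc5d (47.9 to 79.0) and the last reductase, Dhcr7 (33.5 to 60.6). Cyp51 overlaps Akap9, Fdft1 overlaps Ctsb on the other strand and Tm7sf2 overlaps Vps51 on the same strand, so part of their reads may belong to the neighbour.

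Of the SREBP control genes, Insig1 and Srebf2 varied more than Srebf1, Scap and Insig2. Srebf2, the SREBP gene tied mainly to sterol synthesis, was at 113 CPM in m101, 148 in m74, 152 in m47, 154 in m73, 159 in m115, 171 in m44, 179 in m83, 181 in m49, 191 in m61, 192 in m89 and 226 in m57. Srebf1, tied mainly to fatty acid synthesis, was at 44.6 in m101, 45.0 in m73, 48.4 in m83, 52.1 in m61, 53.4 in m89, 53.7 in m47, 56.8 in m44, 57.9 in m57, 63.8 in m74, 64.5 in m49 and 64.7 in m115. Both were lowest in m101, and their high libraries differed. Insig1, an SREBP target that retains Scap, was at 48.5 in m74, 49.4 in m101, 52.3 in m115, 53.8 in m49 and 54.4 in m47. It reached 62.3 in m73, 63.5 in m83, 69.2 in m57, 71.1 in m44, 81.0 in m61 and 87.3 in m89. Insig2, which has the same task, lay between 43.6 in m83, 50.7 and 58.1 in m61, and the escort gene Scap between 77.7 in m101 and 114.8 in m57. The libraries m89 and m61 were highest for Insig1, as they were for Idi1.

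For fatty acid synthesis, Scd2 was the most abundant gene, at 873 CPM in m101, 970.2 in m74, 1002 in m73, 1057 in m83, 1151 in m47, 1226 in m49, 1235 in m44, 1257 in m115, 1263 in m89, 1439.8 in m57 and 1452 in m61. Fasn, the fatty acid synthase, was at 161 in m101, 202 in m73, 207 in m47, 209 in m61, 229 in m83, 231 in m115, 233 in m74, 239 in m89, 245 in m44, 252 in m49 and 311 in m57. Both were lowest in m101, and m61, highest for Scd2, was among the low libraries for Fasn. Acaca, which supplies malonyl-CoA, was the least variable of all 36 genes and lay between 54.1 in m61 and 67.2 in m49, although 30.4% of its exon stretches of 50 bases are shared with other genes. Acly ran from 150 in m101 to 228 in m57 and Scd1 from 113 in m74 to 176 in m61.

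Among the transport genes, Apoe was at 1221 CPM in m73, 1240.2 in m47, 1298 in m115, 1343 in m89, 1449 in m57, 1480.2 in m101, 1661 in m49, 1815 in m44, 1902 in m74, 2213 in m83 and 2545 in m61. Abca1, at chromosome 4, 53030787 to 53159895 (minus strand), was at 11.8 in m83, 13.8 in m61, 19.0 in m44, 20.5 in m49, 21.2 in m74, 27.7 in m101, 28.1 in m89, 32.8 in m57, 40.8 in m73, 45.4 in m47 and 49.6 in m115. The libraries high for Apoe (m61, m83) were the lowest for Abca1, and those high for Abca1 (m115, m47, m73) were the lowest for Apoe. Npc2, which binds cholesterol in the lysosome, was at 51.5 in m115, 54.0 in m73, 54.7 in m89, 55.7 in m57, 56.6 in m47, 61.7 in m101, 62.0 in m44, 67.6 in m49, 74.1 in m74, 76.9 in m83 and 87.7 in m61. Its membrane partner Npc1 varied little, between 43.9 in m101, 49.7 and 58.9 in m89. Stard4, a soluble carrier of sterols, lay at 18.3 to 23.3 CPM in 9 libraries and at 33.6 in m57 and 36.9 in m89. Soat1 (26.4 to 38.6 CPM), the exporter Abcg1 (50.9 to 74.9) and Cyp46a1 (147 to 265) complete the group.

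Most of the 36 genes varied less over the libraries than the median gene of the table, and 13 varied more. The spread of a gene, its biological coefficient of variation from edgeR over the 11 libraries, had a median of 0.178 over the 36 genes and 0.201 over all 15373 genes past the filter on low counts. A single member, Abca1 with 0.452, exceeded 0.3, against 24.8% of all genes, which were not matched to the members for level. Medians by role were 0.214 for the mevalonate arm, 0.206 for squalene to sterol, 0.177 for transport, 0.147 for fatty acid synthesis and 0.132 for SREBP control, and the smallest value was 0.0718 for Acaca. The spread of Lss, 0.209, was 0.137 without m61. Animal, genotype, dissection and library differences are held together in these values.

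**Figure D2:**
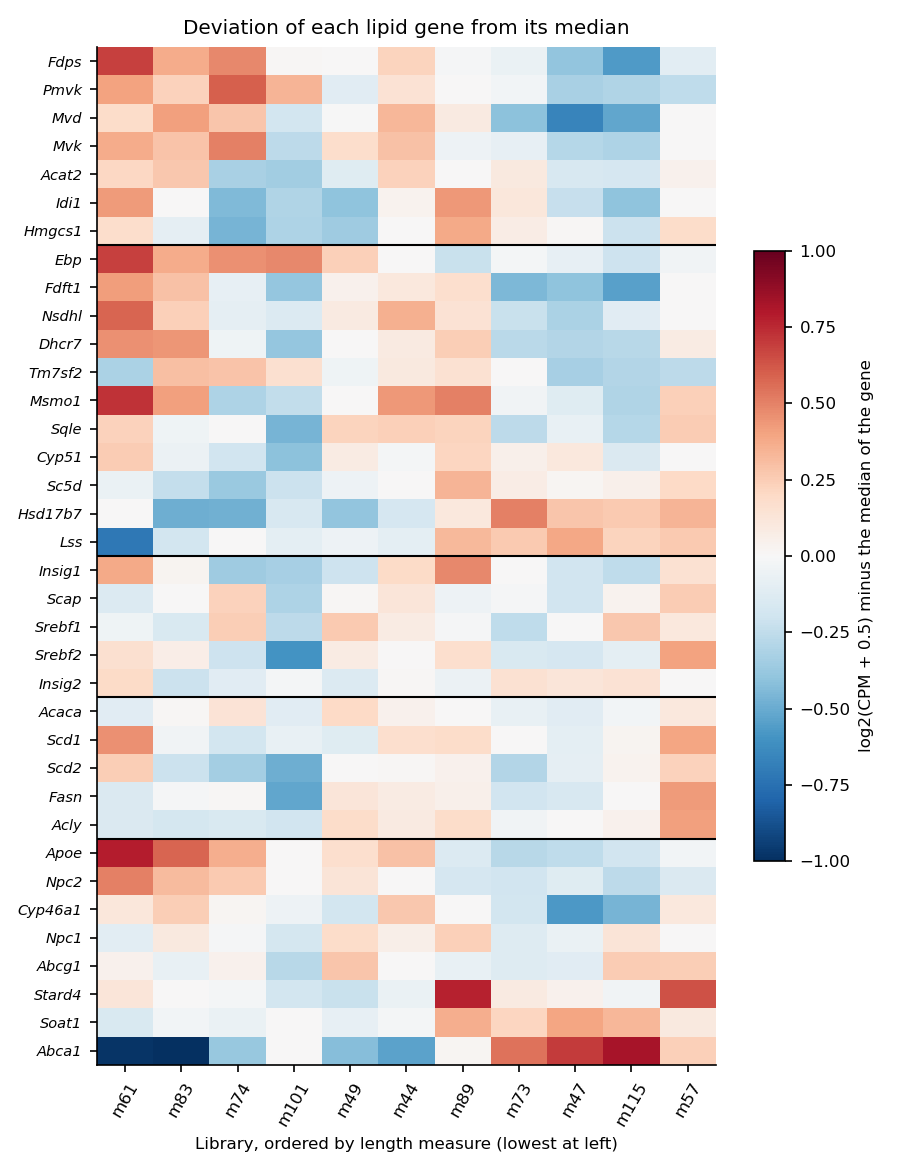
Log2 deviation of each gene from its own median (colour, red above and blue below, values beyond 1 shown in the end colours), with genes grouped by role and libraries ordered from the lowest to the highest length measure. Apoe, Npc2 and Fdps are red at the left, in m61, m83 and m74, and Abca1 is blue there.

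Because no groups are labelled, each gene was related to 8 measures of the same libraries, using the slope of log2 expression per SD of the measure in edgeR's quasi-likelihood test, with Benjamini-Hochberg adjustment over all genes. Genes that make a measure were left out of its counts, which for the length measure removed 3073 genes and 5 members, Abca1, Lss, Npc1, Fasn and Acaca. Along the length measure 10 of the other 31 genes changed (32.3%), against 28.1% of all genes (3451 of 12300). The members' share was thus near that of the table. In 3 genes the level rose with the measure, against 14.9% of all genes: Soat1, Hsd17b7 and Sc5d. In 7 it fell, against 13.1% of all genes: Npc2, Apoe, Fdps, Ebp, Pmvk, Mvk and Mvd, of which 4 belong to the mevalonate arm.

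Of these 31 genes, the 3 with the smallest p on the length measure all fell with it. Npc2 had a slope of -0.23 log2 units per SD (SE 0.039, adjusted p 0.000586 in edgeR's quasi-likelihood test). Over the 11 libraries its Pearson r with the measure was -0.945 and its Spearman rho -0.873 (permutation p adjusted over all genes 0.00162 and 0.0125), and r was -0.938 without m61 and m57. Apoe had a slope of -0.32 (SE 0.053, adjusted p 0.000601), with r -0.90 and rho -0.836 (adjusted permutation p 0.0034 and 0.0192) and r -0.897 without those libraries. Fdps had a slope of -0.34 (SE 0.058, adjusted p 0.000743), with r -0.904 and rho -0.936 (adjusted permutation p 0.00173 and 0.00534) and r -0.898 without them. So libraries low on the measure, m61, m83 and m74, held much Npc2, Apoe and Fdps. Mvd missed the threshold without m115, m47, m83 or m74 (adjusted p 0.0825, 0.0774, 0.083 and 0.0578), and Sc5d without m101, m89, m83, m74 or m57 (0.0514, 0.0528, 0.0767, 0.0787 and 0.0708). Abca1 and Lss help to make the measure, so their slopes are given as a description with no test: 0.59 (SE 0.094) for Abca1, and 0.27 (SE 0.054) for Lss, which was 0.18 without m61. With the genes that make the measure kept, a count added after seeing the data, 12 of 36 genes passed, those 2 included, against 32.9% of all genes (5054 of 15373).

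The exon length of the members moved with these slopes. The 3 rising genes have 4866 to 9791 bases of exon and the 7 falling ones 1713 to 5438. Across the 36 genes the r between log2 exon length and slope was 0.629 (rho 0.636), and it was 0.464 across 15353 genes in all (rho 0.566). These are correlations across genes, which share the libraries and are no replicates. The measure is itself built from genes sorted by this exon length, merged over transcripts, with 5 members among its longest 10% and 0 among its shortest. What part length has in the difference between Abca1 and Apoe was not tested.

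**Figure D3:**
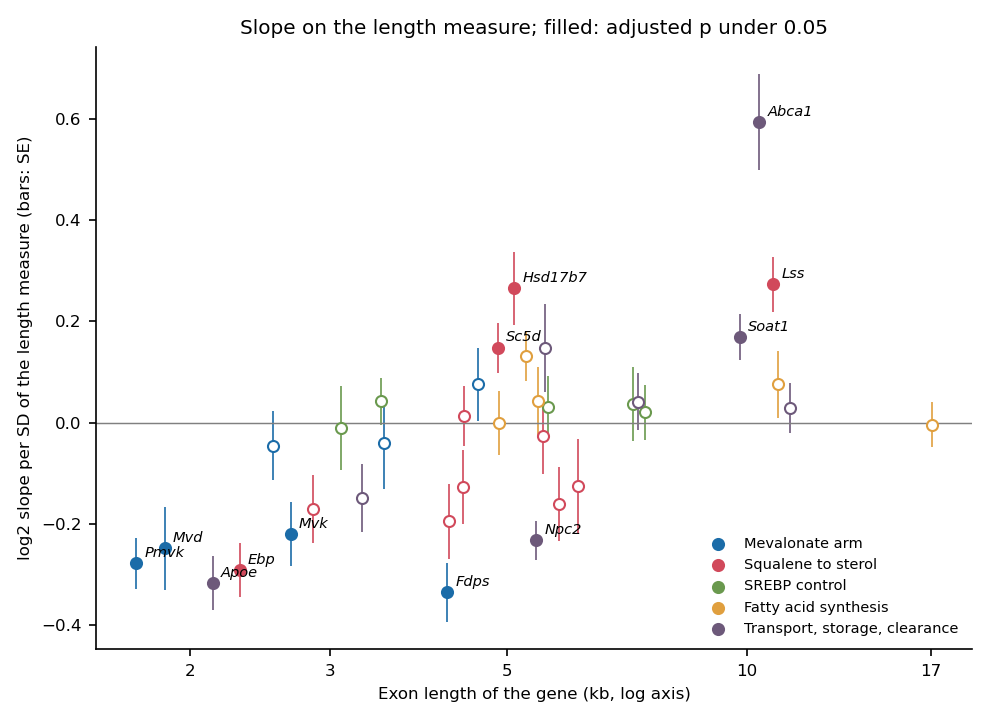
Slope of each of the 36 genes on the length measure (log2 per SD, bars show the SE) against its exon length (kilobases, log axis), coloured by role, filled where the adjusted p is under 0.05, with the 5 members that make the measure included. Abca1 and Lss are filled but help to make the measure, so their fill is no test result. Filled points above 0 lie at 4866 bases or longer and those below 0 at 5438 bases or shorter.

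Along the microglial score 11 of 36 genes changed (30.6%), against 19.5% of all genes (3000 of 15363). In 8 the level rose with the score, against 8.79% of all genes: Apoe, Fdps, Npc2, Nsdhl, Mvk, Fdft1, Ebp and Mvd. In 3 it fell, against 10.7%: Abca1, Lss and Soat1. Apoe, which activated microglia also make, had a slope of 0.31 (SE 0.057), with an adjusted p of 0.00488 in edgeR's quasi-likelihood test. Abca1 had a slope of -0.54 (SE 0.11, adjusted p 0.0085) and Lss of -0.27 (SE 0.06, adjusted p 0.0101). For Apoe the r was 0.874 and rho 0.827 (adjusted permutation p 0.0123 and 0.0629), for Abca1 -0.79 and -0.718 (0.0345 and 0.112), and for Lss -0.869 and -0.60 (0.0183 and 0.20). Without m47 and m61 these r were 0.756, -0.691 and -0.645.

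The microglial score stood against the length measure over the 11 libraries, with r -0.753 and rho -0.573 (permutation p 0.0070 and 0.0706, adjusted over 28 relations between measures 0.108 and 0.283) and r -0.818 without m61 and m57. With the length measure as a second covariate 0 of 36 genes passed in edgeR's quasi-likelihood test and 0 of all genes, while 9 and 2501 had an unadjusted p under 0.05. DESeq2, without that covariate, called 13 of the 36, against 26.4% of all genes. Without m47 the count was 5, without m61 6, and without m115 or m73 7. The count without m61 includes a gene that did not pass in the fit of all libraries. With library totals left unscaled the count was 7, of which 3 rose and 4 fell. All genes then split into 689 rising and 2201 falling, against 1351 and 1649. With that covariate the slopes were 0.16 for Apoe (adjusted p 0.266), -0.22 for Abca1 (0.444) and -0.15 for Lss (0.323). Without it, Apoe and Abca1 passed with each library left out in turn, and the other 9 calls were each lost in 1 or more of those 11 fits. Leaving out m61 ended 6 of them, with adjusted p of 0.0749 for Npc2, 0.0644 for Fdps, 0.0763 for Lss, 0.113 for Fdft1, 0.12 for Ebp and 0.147 for Nsdhl, whose slope was 0.14 there and 0.21 in all libraries. Leaving out m47 ended the calls of Mvd (0.188), Mvk (0.0813), Nsdhl (0.0799), Fdft1 (0.0775), Soat1 (0.0659) and Ebp (0.0625). Without m115 those of Mvd (0.107), Ebp (0.071), Fdft1 (0.0682) and Mvk (0.0651) were lost, and without m73 those of Mvd (0.0998), Fdft1 (0.0663), Ebp (0.0554) and Nsdhl (0.0536). Ebp also missed the threshold without m89 (0.061), and Mvd without m74 (0.069), m44 (0.064), m101 (0.0599) or m49 (0.0508).

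Along the score of projection neurons, the main cell type of the striatum, 1 of 36 genes changed, against 0.729% of all genes (112 of 15362). That gene was Msmo1, with a slope of 0.32 (SE 0.065, adjusted p 0.0383 in edgeR's quasi-likelihood test). Its r was 0.866 and its rho 0.745 (adjusted permutation p 0.189 and 0.387), with r 0.899 without m44 and m57. DESeq2 called Msmo1 and Insig1, against 2.2% of all genes. The 5 libraries highest for the score, m44, m57, m89, m83 and m61, were also the 5 highest for Msmo1. These 5 stood at 0.38 to 0.69 on the score and all others at -0.50 to -0.14. Slopes on this score are therefore close to a contrast between these 5 libraries and the rest. The same 5 carry the highest library numbers (NSZR) in the count table, so this score and the library number cannot be told apart here. The call was lost when any 1 library other than m61 or m57 was left out: adjusted p was 0.0625 without m115, 0.0587 without m49, 0.0845 without m47, 0.0748 without m73, 0.111 without m101, 0.0974 without m44, 0.0952 without m89, 0.0859 without m83 and 0.0984 without m74.

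With the length measure as a second covariate, 5 of 36 genes passed on the projection neuron score, against 2.5% of all genes (384 of 15362). Msmo1 (slope 0.31, adjusted p 0.00572), Fdft1 (0.22, 0.0253), Dhcr7 (0.22, 0.0316) and Insig1 (0.24, 0.0316) rose with the score, against 2.15% of all genes, and Abca1 fell (-0.28, 0.0248), against 0.352%, all by edgeR's quasi-likelihood test. Leaving out 1 library gave 8 genes without m61, 3 without m44, 2 without m115, m73 or m83, and 1 without m47, m101, m89, m74 or m57. Msmo1 passed in each of these 11 fits, with adjusted p from 0.00294 to 0.0347. Slopes on this score with the covariate likewise cannot be told apart from the split by library number.

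On the myelin score 0 of 36 genes passed in edgeR's quasi-likelihood test, 10 had an unadjusted p under 0.05, and DESeq2 called 4. Of all genes 0.137% passed in edgeR (21 of 15361), 12.6% had an unadjusted p under 0.05 there, and 1.87% passed in DESeq2. The members with the smallest p were Mvd, with a slope of 0.30 (SE 0.074, adjusted p 0.144, r 0.839, rho 0.782, r 0.72 without m47 and m83), and Cyp46a1, with 0.23 (SE 0.057, adjusted p 0.147, r 0.854, rho 0.773, r 0.766 without them). Their permutation p adjusted over all genes were 0.227 and 0.519 for Mvd, and 0.198 and 0.519 for Cyp46a1. DESeq2 called Mvd (adjusted p 0.0138), Cyp46a1 (0.0123), Dhcr7 (0.0414) and Abca1 (0.0394), the last with a slope of -0.47. Of 37 other lipid genes that passed the filter, out of a list of 38, Fa2h, which hydroxylates the fatty acids of myelin lipids, passed: its slope was 0.43 (SE 0.066, adjusted p 0.0207 in edgeR's quasi-likelihood test).

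On the astrocyte score 0 of 36 genes passed in edgeR's quasi-likelihood test, 11 had an unadjusted p under 0.05, and DESeq2 called 2. Of all 15363 genes 0 passed in edgeR (0%), 1195 had an unadjusted p under 0.05, and 0.189% passed in DESeq2. Slopes were positive for 31 of the 36 genes and 50% of all genes, with medians of 0.09 and 0.00. The smallest p were those of Scd2, with a slope of 0.21 (SE 0.05, adjusted p 0.544, r 0.897, rho 0.873), and Srebf2, with 0.22 (SE 0.054, adjusted p 0.544, r 0.86, rho 0.773), the same 2 that DESeq2 called (adjusted p 0.0285 and 0.0345). Their adjusted permutation p were 0.495 and 0.429 for Scd2, and 0.495 and 0.485 for Srebf2, and r was 0.818 and 0.753 without m57 and m101. With unscaled library totals 27 of the 36 slopes on the astrocyte score were positive. Positive slopes also prevailed on other measures: 27 of 36 each for myelin, projection neurons and Rarb, and 26 for microglia. All genes had 48.1%, 43.8%, 49.9% and 49.1% there. For Fasn the count was 27 of 35 (52.7% of all genes), for Hmgcs1 23 of 35 (47.9%) and for the length measure 13 of 31 (51.1%).

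Rarb ran from 49.8 CPM in m74 through a median of 72.9 to 101.2 in m44. On its level 0 of 36 genes passed in edgeR's quasi-likelihood test and 0 in DESeq2, with 7 at an unadjusted p under 0.05 in edgeR. Of all genes 0.013% passed in edgeR (2 of 15372), 11.2% had an unadjusted p under 0.05 there, and 1.13% passed in DESeq2. The member with the smallest p was Sc5d, the desaturase near the end of sterol synthesis, with a slope of 0.15 (SE 0.056, adjusted p 0.359). Its r was 0.74 and its rho 0.555 (adjusted permutation p 0.305 and 0.593), with r 0.742 without m74 and m44. Hmgcs1 had a slope of 0.18 (SE 0.066, adjusted p 0.363), with r 0.684 and rho 0.609 (0.371 and 0.569), and r 0.635 without those libraries. Rarb and the projection neuron score had r 0.757 and rho 0.855 (permutation p adjusted over 28 relations 0.108 and 0.0456), with r 0.596 without m74 and m44, and the part of that score in these slopes was not tested.

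The members with the largest r with Hmgcs1 were Insig1, Idi1, Stard4, Sc5d, Scd1 and Msmo1, and none of them passed in edgeR without a covariate. On the level of Hmgcs1 0 of the 35 other genes passed in edgeR's quasi-likelihood test, and 9 had an unadjusted p under 0.05. Of all genes 0.026% passed (4 of 15372) and 11.3% had an unadjusted p under 0.05. The slope of Idi1 was 0.29 per SD (SE 0.057, adjusted p 0.101), with r 0.893 and rho 0.855 (adjusted permutation p 0.0937 and 0.136). The slope of Insig1 was 0.26 (SE 0.052, adjusted p 0.101), with r 0.897 and rho 0.855 (0.0937 and 0.139). That of Stard4 was 0.26 (SE 0.066, adjusted p 0.175), with r 0.795 and rho 0.873 (0.133 and 0.116), and that of Msmo1 was 0.27 (SE 0.079, adjusted p 0.261), with r 0.727 and rho 0.682 (0.305 and 0.348). Without m74 and m89, the ends of the Hmgcs1 range, r was 0.825 for Idi1, 0.816 for Insig1, 0.779 for Stard4 and 0.609 for Msmo1. Other members with an unadjusted p under 0.05 were Sc5d, Scd1, Cyp51, Hsd17b7 and Srebf2, with slopes of 0.13 to 0.21. DESeq2 called Insig1 (adjusted p 0.000598), Idi1 (0.000806) and Stard4 (0.0195), against 1.65% of all genes.

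With the length measure as a second covariate, 3 of 35 genes rose with Hmgcs1, against 0.735% of all genes (113 of 15372), or 0.605% counting only those that rose. They were Idi1 (slope 0.33, adjusted p 0.00789), Insig1 (0.29, 0.0164) and Msmo1 (0.33, 0.0164), by edgeR's quasi-likelihood test. Their promoters and that of Hmgcs1 are the 4 printed above. The 3 calls were lost without m74, the library lowest for all 4 genes, with adjusted p of 0.0587, 0.0634 and 0.0989, and that of Msmo1 was lost without m61 (0.0656). The same 3 passed in each of the other 9 fits that left out 1 library. Hmgcs1 and the projection neuron score had r 0.692 and rho 0.545 (permutation p adjusted over 28 relations 0.124 and 0.308), with r 0.523 without m74 and m89, and the part of that score in these slopes was not tested.

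**Figure D4:**
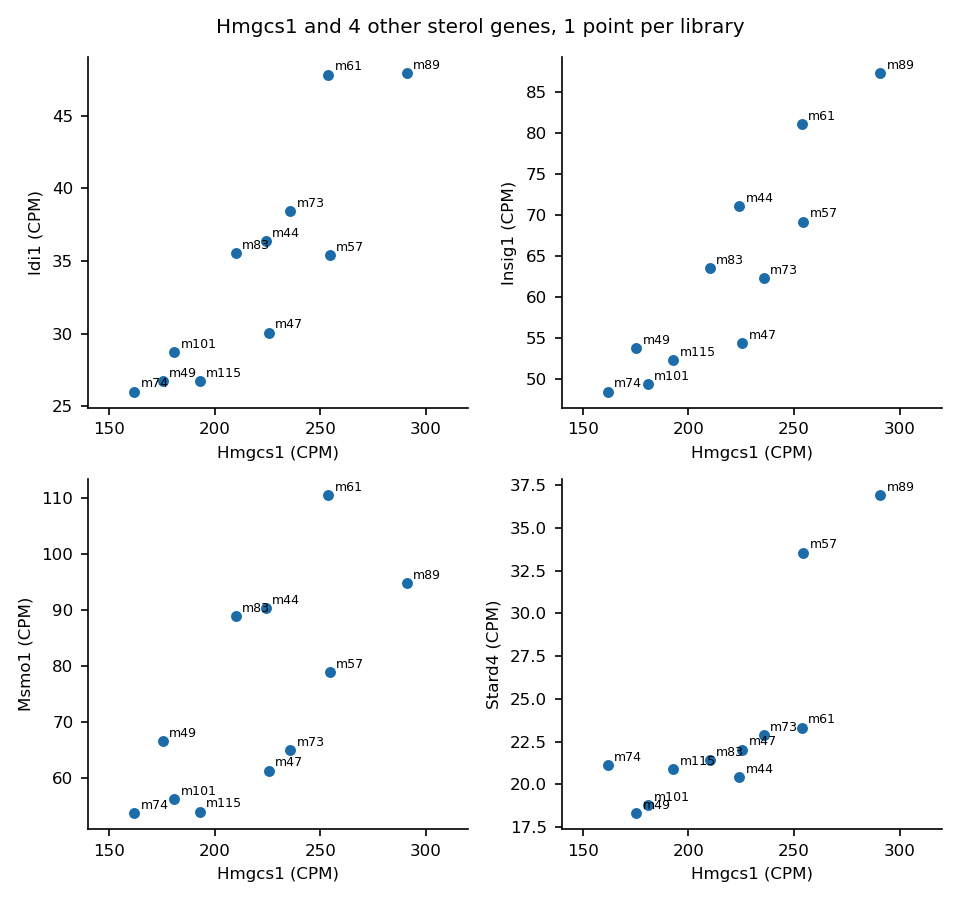
Levels of Idi1, Insig1, Msmo1 and Stard4 (CPM, vertical axes not starting at 0) against Hmgcs1 (CPM) in the 11 libraries, 1 labelled point per library. Idi1 and Insig1 are higher where Hmgcs1 is higher, and Msmo1 is highest in m61. Stard4 lies between 18.3 (m49) and 23.3 (m61) apart from m57 (33.6) and m89 (36.9).

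Of the whole table, 5 genes had the smallest p for a positive slope on Hmgcs1, and 4 of them passed. They were the kappa opioid receptor gene Oprk1 (slope 0.77, SE 0.092, adjusted p 0.00894), the synaptic scaffold gene Homer1 (0.48, SE 0.058, 0.00894), the activin receptor gene Acvr1c (0.75, SE 0.11, 0.0402), the kainate receptor auxiliary gene Neto2 (0.47, SE 0.071, 0.0402) and the kinase gene Camk4 (0.41, SE 0.066, 0.0617), by edgeR's quasi-likelihood test. Their r with Hmgcs1 ran from 0.904 for Camk4 to 0.954 for Homer1 (adjusted permutation p 0.0937 and 0.0512). Those with the smallest p for a negative slope were Podxl2 (slope -0.24, adjusted p 0.101), Ggact (-0.35, 0.101), Ece2 (-0.34, 0.102), Spint2 (-0.29, 0.118) and Asl (-0.27, 0.123), and none of these 5 passed. Of the 37 other lipid genes 0 passed on Hmgcs1.

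On the level of Fasn 0 of the 35 other genes passed in edgeR's quasi-likelihood test, 6 had an unadjusted p under 0.05, and DESeq2 called 1. Those 6 were Srebf2, Acly, Scap, Sqle, Abcg1 and Scd2. Of all genes 0.013% passed in edgeR (2 of 15372), 9.13% had an unadjusted p under 0.05 there, and 0.898% passed in DESeq2. Srebf2 had a slope of 0.22 (SE 0.055, adjusted p 0.195), with r 0.849 and rho 0.655 (adjusted permutation p 0.234 and 0.539). Without m101 and m57, which are lowest and highest for Fasn and for Srebf2, r was 0.328, so the relation rests on those libraries. Acly had a slope of 0.15 (SE 0.048, adjusted p 0.338), with r 0.79 and rho 0.791 (0.248 and 0.358) and r 0.536 without them. Of the whole table, Pcdhgc5 (slope 0.73, adjusted p 0.0117) and Pde2a (0.60, 0.0308) passed, followed by Oprd1, Grm3 and Ptprn2 (each 0.0672), and the smallest p for a negative slope were those of Gm44562 (0.0952), Rbm3 (0.11), Gm44623 (0.139), Arxes2 (0.148) and Gp5 (0.153).

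Pairs of the 36 genes are described beside all pairs of genes, with no test. Over their 630 pairs the median Pearson r of log2(CPM + 0.5) was 0.21, against 0.00171 over all 118156878 pairs of genes past the filter, and 5.4% of pairs exceeded 0.8 against 2.5%. By role the median was 0.566 within fatty acid synthesis, 0.429 between the mevalonate arm and the steps from squalene to sterol, 0.435 between SREBP control and fatty acid synthesis, 0.377 within the mevalonate arm, 0.163 within squalene to sterol, 0.109 within SREBP control and 0.00921 within transport. The median over all 630 pairs was 0.127 without m101, the library low for many members, and 0.105 with library totals left unscaled, where all pairs of genes had 0.0515. After removal of the length measure from each gene it was 0.305, against 0.00509 over all pairs.

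Some pairs, named after their values were seen, ran closely together or apart over the 11 libraries. The r was 0.962 for Fdft1 and Dhcr7 (rho 0.909), which join and finish the sterol branch, 0.951 for Idi1 and Insig1 (rho 0.90) and 0.95 for Npc2 and Apoe (rho 0.918). It was 0.838 for Srebf1 and Abcg1 (rho 0.891), -0.934 for Apoe and Abca1 (rho -0.918), and -0.904 for Apoe and Lss (rho -0.818). Apoe and Npc2 fell with the length measure, and Abca1 and Lss are among the genes that make it. With the 2 most extreme libraries of the gene named first left out, r was 0.978, 0.918, 0.869, 0.726, -0.90 and -0.806 in the order given.

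**Figure D5:**
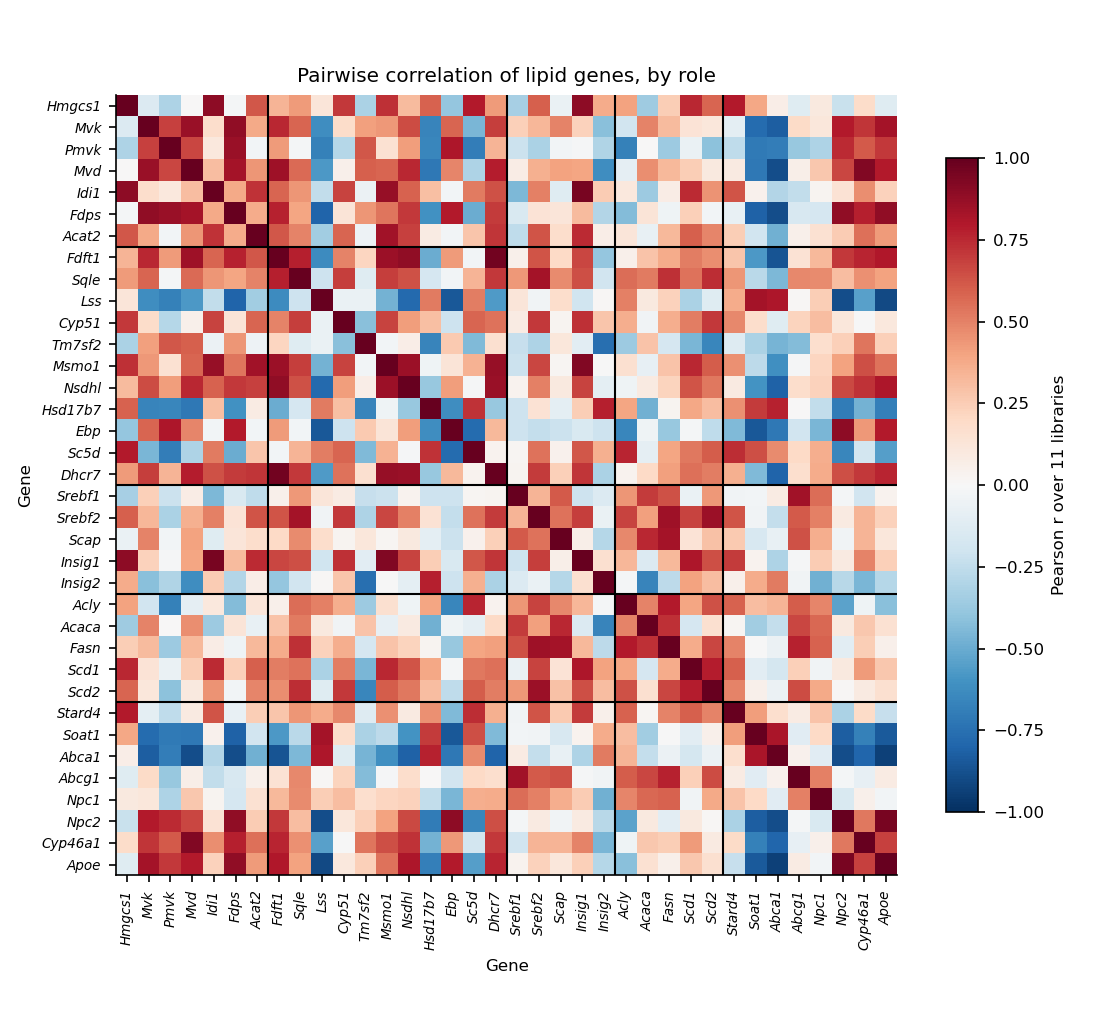
Pearson r of log2(CPM + 0.5) over the 11 libraries for each pair of the 36 genes (colour, red positive and blue negative), with black lines between the 5 roles and the diagonal at 1. Lss, Soat1, Hsd17b7 and Abca1 form blue bands against Apoe, Npc2, Fdps and Ebp.

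Beyond the 36 genes, 38 others of fatty acid elongation, desaturation and lipoprotein handling were read beside them, of which Ch25h did not pass the filter. Of the 37 tested, 30 do not make the length measure, and 8 of these changed along it in edgeR's quasi-likelihood test, 3 rising and 5 falling, against the same 28.1% of all genes. The enoyl reductase gene Tecr fell (slope -0.28, SE 0.036, adjusted p 0.000158), as did the lipocalin gene Apod (-0.34, SE 0.066, 0.00164). The ubiquitin ligase gene Mylip (0.20, SE 0.058, 0.0176) and the geranylgeranyl diphosphate synthase gene Ggps1 (0.17, SE 0.051, 0.0187) rose. On the microglial score 7 of the 37 changed, 4 rising and 3 falling, against 19.5% of all genes.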

How the data were processed

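Poly(A) RNA of 11 libraries, 1 per animal code, was analysed from a table of raw counts per gene deposited by the authors. The submitters' processing notes name HTSeq 0.6.1, Bowtie2 2.1.0, TopHat2 2.0.14 and bcl2fastq 2.17.1.14, with mm10. Neither annotation release nor strand setting is given in the sources used here. Names, coordinates and exon lengths came from GENCODE M21 (52403 of 52550 identifiers matched), promoters from RefSeq.

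Library sizes were TMM scaled with edgeR 4.0.16 under R 4.3.3, with DESeq2 1.42.0 as an alternative. The filter kept 15373 genes, those reaching 1 CPM in 3 or more libraries whose median count was 10 or higher. Log2 values use log2(CPM + 0.5). Cell type scores average the log2 deviations of markers, and genes that make a measure were left out of its counts, with adjustment over all genes. Slopes were tested two-sided over all 11 libraries, each taken as an independent animal. The p-values treat the libraries as interchangeable apart from the measure, although unlabelled genotypes may lie among them. Correlations used 100000 permutations. No measure split into separate clusters, taken as an inner gap over 0.5 of its range, and no batch is labelled. The projection neuron score came closest, with a gap of 0.437 of its range. Its high libraries are those with the highest library numbers (NSZR). The slope test was tested on simulated data. Alternatives were scaling, filter, test, covariate and each library left out.

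The members and lists were chosen with earlier results of these data known. Genes named are, per role, the most abundant, most and least variable member, Srebf1, Srebf2, up to 3 members past the threshold per relation, and the 5 genes of smallest p in each direction for Hmgcs1 and Fasn. Others were named after their values were seen. Reads of near-identical copies and of overlapping genes may have been lost or split in counting.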

Additional observations from a re-analysis of the deposited data

How the results depend on the processing

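Counts of members past the threshold kept within 1.5 times the main count under most alternatives. For myelin, astrocytes, Rarb, Hmgcs1 and Fasn the main count was 0, so there this means only that it stayed 0. Slopes of members that passed in a relation kept their direction. On the microglial score, unscaled library totals changed the calls from 8 rising and 3 falling to 3 rising and 4 falling. DESeq2 gave 4 for myelin, 2 for astrocytes, 2 for projection neurons, 3 for Hmgcs1 and 1 for Fasn. Unscaled library totals gave 7 for microglia, 0 for projection neurons and a median pairwise r of 0.105. With the length measure as a second covariate the counts were 0 for microglia, 5 for projection neurons and 3 for Hmgcs1, and with it removed the median r was 0.305. Without the filter, and by permutation of r, projection neurons gave 0. The cause was not tested. Leaving out 1 library gave 5 to 11 for microglia, 8 to 12 for the length measure, 0 to 1 for projection neurons, and 0 to 0 for myelin, astrocytes, Rarb, Hmgcs1 and Fasn. With the length measure as a covariate, chosen after seeing the data for these repeats as was its removal from r, it gave 0 to 3 for Hmgcs1 and 1 to 8 for projection neurons. Median spread ranged from 0.169 to 0.185, members above 0.3 from 1 to 1, and median pairwise r from 0.127 to 0.251. No paired analysis was possible because the labels give no groups and no shared replicate numbers. The 11 libraries limit each slope, and 3 counts were 0.0619 to 0.133 CPM, far below every member.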
